A study of Rattus norvegicus with 20 samples.

Results

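Igtp encodes an interferon gamma induced GTPase of the immunity-related GTPase (IRG) family, and its single probe gave a signal well above background in neonatal rat heart cultures only after 24 h at the highest diclofenac concentration. The gene was found in the array files by its name among the probes that are not controls, and it is 1 of 30488 genes with a kept probe. It was chosen by this pattern, from the background flags and signals of the 20 arrays over the 7 groups, so its levels are a description and carry no test. Diclofenac is an anti-inflammatory drug that inhibits the cyclooxygenases. The primary cultures, labelled as cardiomyocytes from neonatal rat heart and grown for a day in DMEM medium, were left untreated (n = 2 arrays) or received diclofenac for 6 h or 24 h at a reference concentration of 1, 1/5 or 1/25 (n = 3 arrays for each of the 6 treated groups). The molar value of the reference concentration, the vehicle and the time at which untreated cultures were taken are not given in the sources used here, and the design text states 3 replicates a group where 2 untreated arrays are listed. Nothing in the labels ties replicates to separate cultures or animals, so spreads and p-values measure only these samples and may be technical.

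IRG proteins are GTPases that many mammalian cells make after interferon exposure and that act on internal membranes, including the membrane around intracellular parasites. In the mouse, Igtp belongs to the regulatory branch of the family, found on the endoplasmic reticulum and lipid droplets, which keeps the effector IRG proteins inactive on the membranes of the host. Interferon gamma switches such genes on through gamma-activated sites of the form TTCNNNGAA and through interferon regulatory factors, which bind interferon-stimulated response elements built from repeats of GAAA.

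The probe is shown because every Igtp value rests on it. It is 60 bases long with a GC content of 35%, is printed on 1 spot of each array, and lies on the plus strand of chr10:43865662-43865721 in build rn3, per the array files. An annotation of that build was not used here, so its exon is not stated.

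Igtp probe: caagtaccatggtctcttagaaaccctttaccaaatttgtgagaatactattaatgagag

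Among the other 41011 probes of the array, the longest run of bases shared with it on either strand was 16, with the probe of AI175513. In the RefSeq gene table of assembly GRCr8, Igtp lies at chr10:42875047-42882866. The annotated gene Igtpl1, whose symbol marks it as like Igtp, lies at chr10:42860123-42867848, 7199 bases from it. Igtpl1 has 0 probes on the array, and its transcript was not compared with the probe, so signal from both genes cannot be told apart. The family member Irgm2 lies 7053 bases away on the other side, at chr10:42889919-42900060, and also has 0 probes.

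Promoters of the IRG genes are shown because Igtp, Irgm2 and Irgm share an arrangement of letters there. The RefSeq promoter table (GRCr8) was searched on both strands for GAAANNGAAA and TTCNNNGAA. The search covered the 250 bases before the start that this table uses for each gene. Matches stand in capitals in the 5′ to 3′ direction of the gene. The Irgm window shown lies within the span of Irgm in the gene table, chr10:33734640-33742720. The start used for Irgm thus differs from the gene start in that table.

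Igtp, chr10:42874923-42874963, plus strand: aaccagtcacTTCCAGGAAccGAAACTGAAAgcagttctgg

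Irgm2, chr10:42889847-42889887, plus strand: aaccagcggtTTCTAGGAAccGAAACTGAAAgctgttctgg

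Irgm, chr10:33742593-33742633, minus strand: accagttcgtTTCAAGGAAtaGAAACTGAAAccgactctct

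In each of the 3 promoters the motifs stand 2 bases apart, in the same order and without overlap. Of 27457 promoters in the table, 902 (3.29%) held GAAANNGAAA, 2066 (7.52%) held TTCNNNGAA and 121 (0.441%) held both. Exactly this spacing and order occurred in 7 promoters (0.0255%), those of Igtp, Irgm, Irgm2, Ifgga2l2, Parp14, Stra8 and LOC134480693. Of these genes Igtp, Irgm and Parp14 had a kept probe on the array. The promoter of Igtpl1 held neither motif in its 250 bases, nor did those of Irgc, Irgq and Mx1. The promoter of Ifi47 held TTCNNNGAA 2 times, and those of Gbp2, Gbp4 and Gbp5 held GAAANNGAAA on the reverse strand. A match is a description of the letters and not a binding site.

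At concentration 1 for 24 h the processed signals of Igtp were 1392, 748 and 455 intensity units on the 3 arrays (865 ± 479, mean ± SD, n = 3). On the 2 untreated arrays they were 75.4 and 69.4 units. Over all 17 arrays outside concentration 1 for 24 h they ran from 32.5 to 97.1 units. Every array of concentration 1 for 24 h was thus brighter than every other array, and the groups did not overlap. The scanner software marked the spot as well above background on 3 of these 3 arrays and on 0 of the 17 others. Of the 17, 4 passed the weaker flag for a positive and significant signal and 13 did not. On each of the 17, even the dimmest spot well above background was brighter than the Igtp spot. These Igtp values thus have a bound and no order among themselves. No Igtp spot was flagged as an outlier and none was saturated.

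**Figure D1:**
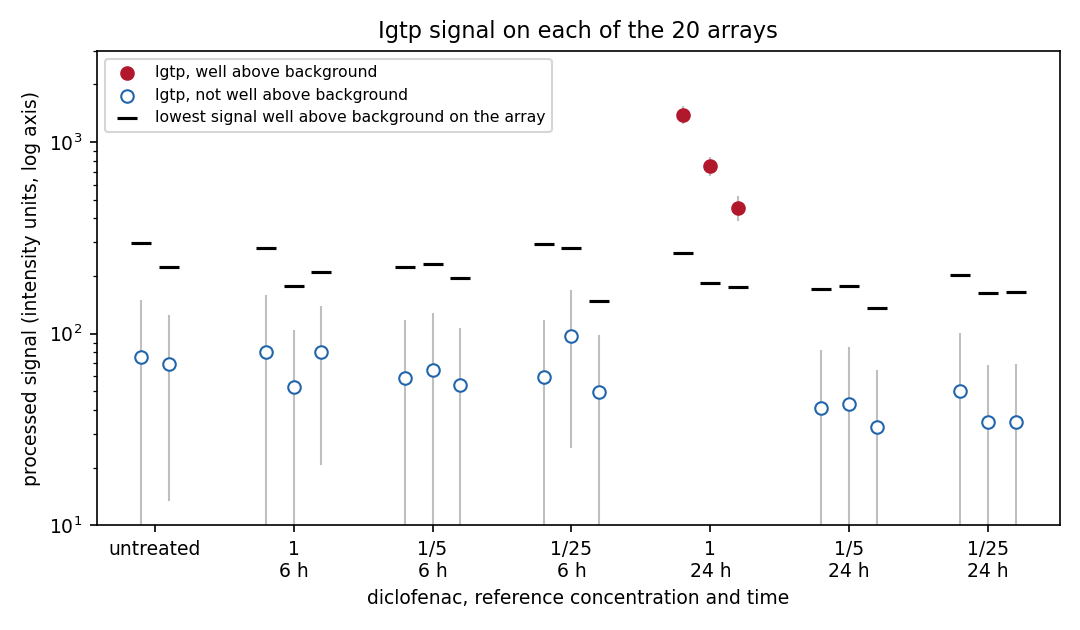
Processed signal of the Igtp probe (intensity units, log axis) on each of the 20 arrays by group. Filled points are spots well above background, open points are not, grey bars are the scanner software's error of the signal, and black dashes mark the lowest signal well above background on that array; the 3 arrays of concentration 1 for 24 h, at 455 to 1392 units, are the only filled points, and the other 17 lie at 32.5 to 97.1 units below their dashes.

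The arrays differed in brightness, so levels were put on a common scale as log2 of the processed signal minus the 75th percentile of the array. That percentile ran from 3165 to 21937 units over the 20 arrays and from 14356 to 21937 at concentration 1 for 24 h. On this scale Igtp stood at -3.98, -4.26 and -5.32 at concentration 1 for 24 h, with a mean of -4.52 ± 0.71 (SD, n = 3). The 3 arrays thus also differed among themselves, with the third the dimmest. The untreated arrays lay at -7.91 and -7.80, a mean of -7.85 ± 0.08 (SD, n = 2). Measured means were -7.98 ± 0.27, -8.02 ± 0.19 and -7.93 ± 0.53 at concentrations 1, 1/5 and 1/25 for 6 h, and -7.58 ± 0.86 and -8.26 ± 0.46 at 1/5 and 1/25 for 24 h (SD, n = 3 each). These 6 groups were not well above background, so the order runs from concentration 1 for 24 h to all others, which have no order among themselves. The highest of the other 17 values, -6.61 on the third array of 1/5 for 24 h, was not well above background either. It was 1 of the 4 that passed the weaker flag.

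How far down the other arrays could have shown Igtp varied. On 16 of the 17 the lowest level that was well above background lay under the lowest Igtp level of concentration 1 for 24 h, and its range over the 17 was -6.62 to -4.54. The exception was the third array of 1/5 for 24 h, the array with the lowest share of spots well above background, 64.1%. There an Igtp level like that of the dimmest array at concentration 1 would not have been detectable. The lowest level is not a strict limit, since a brighter spot can fail the flag. On the second array of 1/25 for 6 h it was -5.78, but Mx1 at -5.19 was not well above background. On that array too, the dimmest Igtp level of concentration 1 for 24 h might not have been marked. Shares of well above background spots reached 88.2% on other arrays and were 82.5% to 85.9% at concentration 1 for 24 h.

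Because the low side is a bound, the fold differences are nominal lower limits. They were computed against the higher of each dim array's lowest well above background level and the Igtp spot itself. That level is no guaranteed bound, since brighter spots can fail the flag. On the first untreated array it was -5.93, and Ifi47 at -5.65 was not well above background. Igtp at concentration 1 for 24 h was at least 2.84-fold higher than in untreated cultures, where the measured log2 means differed by 3.33 ± 0.49 (SE from the fit over all genes). It was at least 1.99-fold higher than at 1/5 for 24 h, with measured means 3.06 ± 0.44 apart. It was at least 2.99-fold higher than at 1/25 for 24 h, with measured means 3.74 ± 0.44 apart. Against 6 h at the same concentration it was at least 3.49-fold higher, with measured means 3.46 ± 0.44 apart. Igtp was thus brighter by these nominal limits than at both lower concentrations and than at the earlier time. The other 5 differences, those of the 5 other treated groups from untreated, ran from -0.41 to 0.27. They have no fold, since neither side was well above background. With normexp background correction, which adds an offset and compresses dim signals, the difference from untreated was 1.31 in place of 3.33 and that from 1/5 for 24 h was 1.01 in place of 3.06. The deposited table of the series, which holds a ratio to the untreated mean, gave 14.7, 16.3 and 6.65 for the 3 arrays of concentration 1 for 24 h and 0.660 to 4.0 for the other 17.

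All 3 arrays with Igtp signal were on slide 4, so slide and group cannot be told apart. The fourth array of that slide was the third of 1/25 for 6 h. It is 1 array of a group that the choice of Igtp required to be dim, so it cannot separate them. On this array Igtp had a processed signal of 49.6 units and a level of -8.20, not well above background. Within the slide the 3 arrays were at least 4.30-fold higher than it, by the same nominal limit. The log2 difference was 3.68, beside 3.41 against all 3 arrays of 1/25 for 6 h. Local background around the spot was 66.0 to 116 units on the 3 arrays and 46.5 to 89.0 on the others.

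The label of the cultures was checked against defining markers. All 10 cardiomyocyte markers, such as the troponin Tnnt2 and the cardiac actin Actc1, were well above background on every untreated array and every array of concentration 1 for 24 h, and their mean level per array was 0.53 to 0.77 and 0.25 to 0.50. All 8 fibroblast markers, such as the collagen Col1a1, were detected on these arrays too, at a mean level of -0.08 to 0.18 and -0.63 to -0.10. Of 11 macrophage and leukocyte markers on the array, 9 were well above background on every untreated array and 10 on every array of concentration 1 for 24 h. Their mean level per array was -1.90 to -1.77 and -2.20 to -1.95. In the other 24 h groups 8 and 9 of them were well above background on every array, at -2.77 to -2.14 for 1/5 and -2.57 to -2.00 for 1/25. The mean level at concentration 1 for 24 h thus lay below that of untreated cultures and overlapped with the other 24 h groups. Single markers went both ways, with the leukocyte phosphatase Ptprc at a mean of -0.57 in untreated cultures and 0.73 at concentration 1 for 24 h, and the monocyte receptor Cd14 at 1.28 and 0.61. Of 12 T and NK lymphocyte markers, 8 were well above background on every array of both groups, at a mean level of -4.31 to -4.21 and -4.77 to -4.66, with Klrd1 well above background on 0 of 20 arrays and Cd4 and Cd2 on 1 each. Which cells carried Igtp was not tested. In bulk RNA, more cells that express a gene and more RNA per cell cannot be told apart.

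Of the other IRG genes on the list 4 had a kept probe, and none was detected on the arrays of concentration 1 for 24 h alone. Irgm, in the mouse a regulatory member, whose promoter shares the motif arrangement, was well above background on all 20 arrays. It lay at -0.76 and -1.26 in untreated cultures and at -0.94, -0.45 and -0.23 at concentration 1 for 24 h. The groups overlapped, and the difference of 0.47 ± 0.42 (SE) did not pass (limma, adjusted p = 0.999). At 1/25 for 24 h Irgm was at -0.76, -0.03 and 0.03, and overlapped with concentration 1. At concentration 1 for 6 h it was at -1.47, -1.41 and -1.25, below the 24 h arrays of that concentration without overlap. That difference of 0.84 did not pass. Of the 4 kept IRG genes other than Igtp, Irgm alone lay above 0 for 24 h against 6 h, and 3 lay below. Parp14, the other measured gene with this arrangement, which encodes an ADP-ribosyltransferase, had means of -4.10 ± 0.35 (SD, n = 2) in untreated cultures and -4.59 ± 0.24 (SD, n = 3) at concentration 1 for 24 h, a difference of -0.49 ± 0.59 (SE, limma, adjusted p = 0.999).

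Ifi47, which encodes a further interferon gamma inducible GTPase, had its high values at the earlier time. At concentration 1 for 6 h it stood at -4.22, -3.35 and -3.34, and in untreated cultures at -5.65 and -4.81. By 24 h at the same concentration it was at -6.83, -5.16 and -4.79, well above background on 2 of the 3 arrays. The 6 h arrays lay above the untreated and above the 24 h arrays of that concentration without overlap, and in that sense Ifi47 and Igtp were high at different times. Neither difference passed the test over all genes, at 1.59 ± 0.68 for 6 h against untreated and -1.95 ± 0.61 for 24 h against 6 h (SE, limma, adjusted p = 1.00 and 0.188). Irgc, expressed in testis in mammals, and Irgq, a distant member of the family, differed from untreated by -0.22 ± 0.56 and -0.38 ± 0.48 at concentration 1 for 24 h (SE, limma, adjusted p = 0.999 for both).

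The guanylate-binding proteins and Mx proteins are larger GTPases of the same dynamin-like superfamily, and interferons induce them too. Gbp2 was well above background on 20 arrays, at -1.72 and -1.55 in untreated cultures and at -2.13, -2.04 and -2.03 at concentration 1 for 24 h. Here the treated arrays lay below the untreated ones, with a difference of -0.43 ± 0.36 that did not pass (SE, limma, adjusted p = 0.999). Mx1, an antiviral GTPase induced by type I interferon, also lay lower, at -4.85, -4.79 and -4.68 against an untreated mean of -3.91 ± 0.12 (SD, n = 2), a difference of -0.86 ± 0.46 (SE, limma, adjusted p = 0.999). Gbp4, well above background on 10 of 20 arrays, differed by -0.55 ± 0.41 (SE, limma, adjusted p = 0.999). Gbp5 was well above background on 3 of 20 arrays, 0 of them at concentration 1 for 24 h, and Mx2 on 0 of 20. All 3 kept members of this group thus had negative differences from untreated, beside 41.2% of all genes above 0. They were also negative against 1/5 for 24 h and against 6 h, while against 1/25 for 24 h all 3 were above 0, at 0.24 to 0.34, and none passed.

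**Figure D2:**
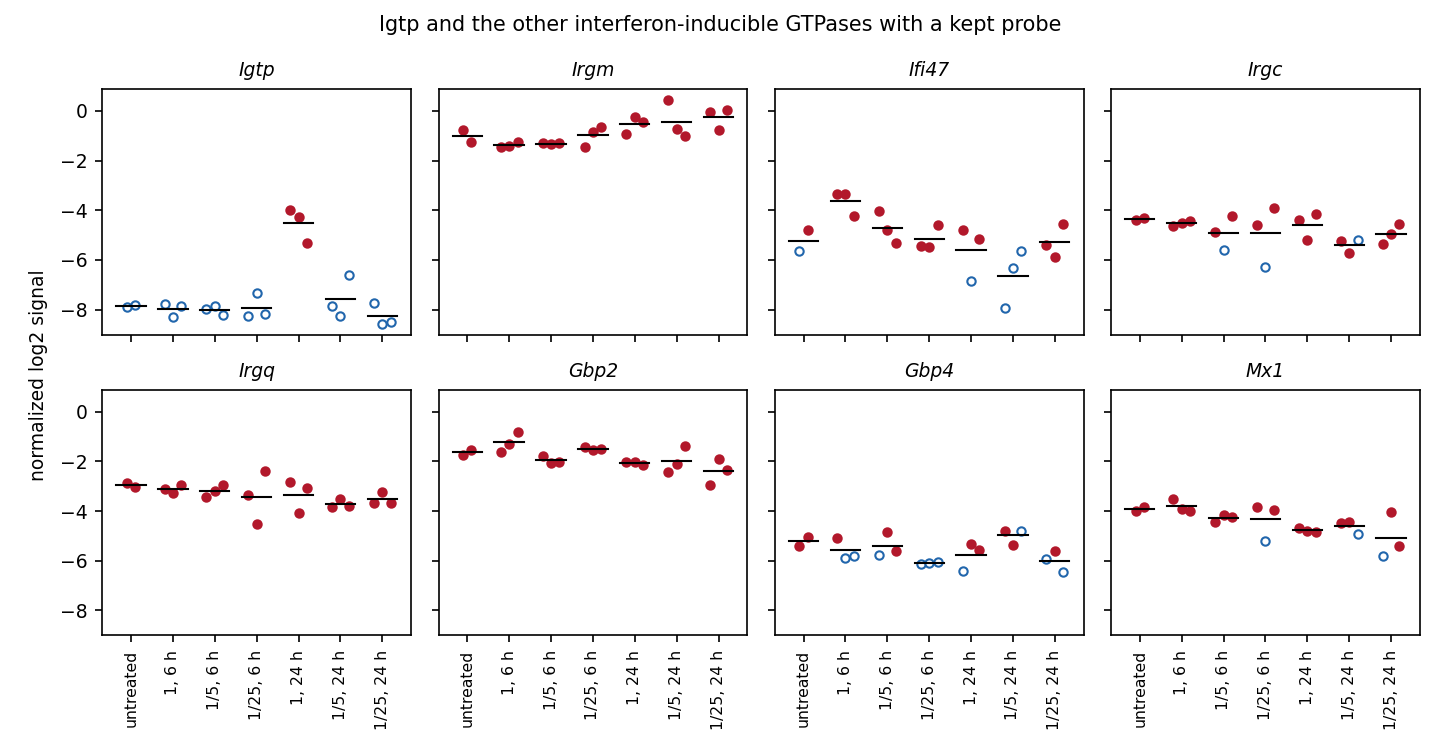
Normalized log2 signal (log2 of the processed signal minus the 75th percentile of the array) of Igtp and 7 other GTPase genes of the IRG, guanylate-binding and Mx families by group, 1 panel a gene. Points are arrays, filled where well above background and open where not, and lines are group means; Igtp is filled at concentration 1 for 24 h alone, from -5.32 to -3.98, while Irgm, Irgq and Gbp2 are filled on all 20 arrays.

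With these GTPases, 118 genes of the interferon pathway other than Igtp were listed by role, of which 96 had a probe and 83 a kept probe. The list was written with earlier results of these data known. Between concentration 1 for 24 h and untreated cultures 0 of the 83 members passed the test of limma, beside 0.00328% of all genes (1 of 30487), and 2 of 83 had an unadjusted p under 0.05, beside 4.56% of all genes. Of the members 30 had a difference above 0 and 53 below, beside 41.2% of all genes above 0, and the median was -0.30, beside -0.10 over all genes. The members' differences ran from -2.77 to 1.29, where the lower end belongs to a gene not detected on 2 of 3 treated arrays. With array quality weights 29 members passed, but so did 29.7% of all genes.

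By role, the counts above 0 for concentration 1 for 24 h against untreated are to be read beside 41.2% of all genes above 0. Interferon ligands and receptors had 7 kept members, of which 0 lay above 0, with a median of -0.57. Their largest difference belonged to the interferon gamma receptor chain Ifngr1, at -1.68 ± 2.10 (SE, limma, adjusted p = 0.999), whose 3 treated arrays ran from -8.38 to -1.31. That spread rested on 1 array, and the receptor was detected on the other 2. The cytokine subunit Il12a followed at -0.88 ± 0.45 (SE, limma, adjusted p = 0.999). The interferon gamma gene Ifng itself had a probe but no kept one, so it was not well above background throughout any group. In signalling and transcription, 6 of 15 members lay above 0 and 9 below, with a median of -0.20. Irf7, a transcription factor of the type I response, differed by 1.16 ± 0.89, and Stat2, a signal transducer, by -1.32 ± 0.85 (SE, limma, adjusted p = 0.999 for both). Irf1, a transcription factor that interferon gamma induces early, differed by -0.18 ± 0.38 (SE, limma, adjusted p = 0.999).

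Downstream groups were also mixed. Antigen processing had 7 of 16 members above 0 and a median of -0.34. The peptide transporter Tap1 differed by -1.09 ± 0.88 (SE, limma, adjusted p = 0.999). The class II gene RT1-Da stood at -4.99 and -4.55 in untreated cultures and at -5.53, -8.39 and -8.68 at concentration 1 for 24 h, where only the first array was well above background. The fitted difference of -2.77 ± 0.89 (SE, limma, adjusted p = 0.846) therefore rests on 2 undetected values and is not a measured size. The interferon gamma effectors had 5 of 11 above 0 and a median of -0.49, with the adhesion molecule Icam1 at 0.81 ± 0.47 and the complement inhibitor Serping1 at -1.09 ± 0.65 (SE, limma, adjusted p = 0.999 for both). Type I interferon-stimulated genes had 11 of 27 above 0 and a median of -0.14.

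Rsad2, the antiviral protein viperin, was the member with the highest difference from untreated. It stood at -5.47 and -5.80 in untreated cultures and at -4.93, -3.56 and -4.56 at concentration 1 for 24 h, without overlap between these groups. The difference was 1.29 ± 0.44 (SE, limma, adjusted p = 0.943). Unlike Igtp, it was also high at 1/5 for 24 h, at -3.94, -4.95 and -4.68, of which the last was not well above background, and overlapped with concentration 1. Against 6 h at concentration 1, its difference was 1.47 ± 0.40 (SE, limma, adjusted p = 0.129), and this one passed with quantile normalization.

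**Figure D3:**
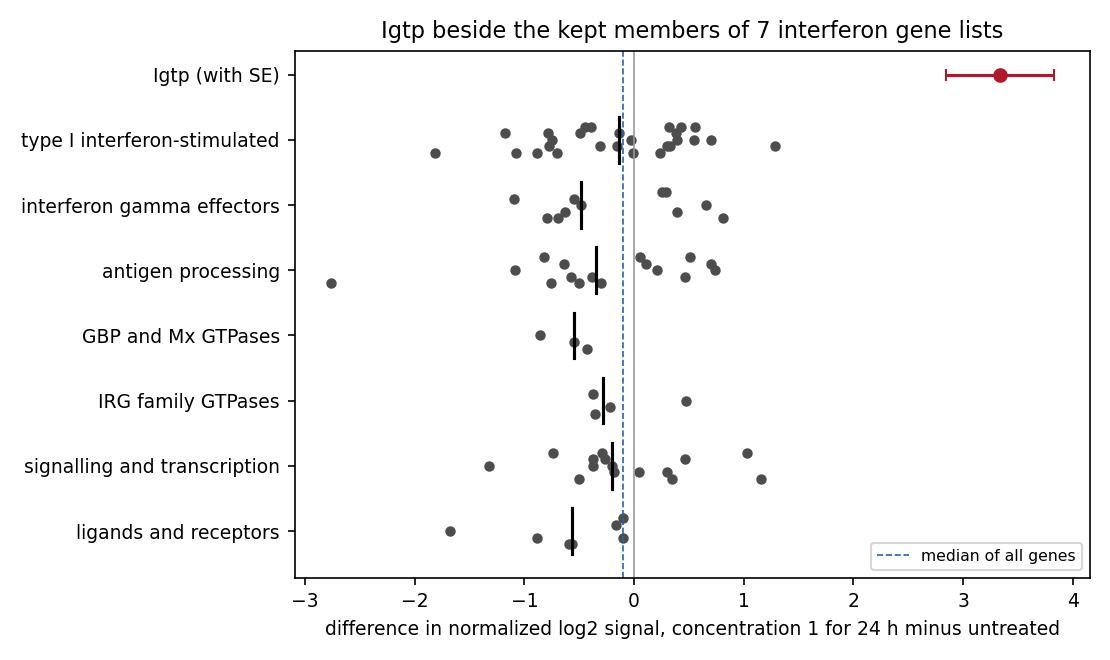
Difference in normalized log2 signal, concentration 1 for 24 h minus untreated, for the 83 kept members of 7 interferon gene lists (grey points, 1 row a list, black bars at the medians) and for Igtp (red, with its SE). The dashed line is the median of all genes, at -0.10; the members run from -2.77 to 1.29 and Igtp lies at 3.33, drawn from measured means although its untreated side is a bound.

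The other comparisons in which Igtp was detected on 1 side gave the same count. For concentration 1 against 1/5 at 24 h 0 of 83 members passed, beside 0% of all genes, and 14 had an unadjusted p under 0.05, beside 21.5% of all genes. In it 49 members lay above 0 and 34 below, beside 49.8% of all genes above 0, and type I interferon-stimulated genes had 19 of 27 above 0. Against 1/25 at 24 h 0 passed, beside 0.00328%, and 5 had an unadjusted p under 0.05, beside 5.01%. Here 54 lay above 0 and 29 below, beside 54.8% of all genes above 0, with 19 of 27 type I interferon-stimulated genes and 8 of 11 interferon gamma effectors above 0. Against the lower concentrations at 24 h more members thus lay above 0 than below, the opposite of the comparison with untreated. For 24 h against 6 h at concentration 1 0 passed, beside 0.233%, and 15 had an unadjusted p under 0.05, beside 13.8%, with 30 above 0 and 53 below, beside 40.5% of all genes above 0. The members' share with an unadjusted p under 0.05 lay under that of all genes in the first of these comparisons. It lay over that of all genes in the other 2, and these differences were not tested. Where Igtp was well above background on neither side, 0 members passed in each comparison with untreated. The shares of all genes beside this were 0.00656%, 0% and 0% at concentrations 1, 1/5 and 1/25 for 6 h and 0.184% and 0.00328% at 1/5 and 1/25 for 24 h. At an unadjusted p under 0.05 there were 2, 0 and 1 members at concentrations 1, 1/5 and 1/25 for 6 h, beside 1.49%, 1.09% and 1.16% of all genes. At 24 h there were 19 for 1/5 and 14 for 1/25, beside 30.4% and 13.4%. All comparisons with untreated cultures share the 2 untreated arrays. Without the second array of 1/5 for 24 h, 25 members passed for that group against untreated and 20 for concentration 1 against it, beside 35.3% and 28.6% of all genes. The difference between concentrations at 24 h was set against that at 6 h for the 102 members and neighbours tested, and 0 passed (limma, lowest adjusted p = 0.624), beside 0.00328% of all genes for 1/5 and 0% for 1/25. At an unadjusted p under 0.05 there were 4 for concentration 1 against 1/5 and 2 against 1/25, beside 5.12% and 2.57% of all genes.

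Genes around the Igtp probe were examined by position. Within 250 kb on chromosome 10 in build rn3 there were 28 probes of 22 genes or transcripts, 19 of them with a kept probe. For concentration 1 for 24 h against untreated 0 of 19 passed, beside 0.00328% of all genes, and 3 had an unadjusted p under 0.05, beside 4.56%. Of the 19, 9 lay above 0, beside 41.2% of all genes. Their differences ran from -1.19 to 1.29, with a median of -0.03. Both kept probes nearest to Igtp were among the 3, and the third was LOC691221, at 1.07 ± 0.50 (SE, limma, adjusted p = 0.999), 173 kb away. Other probes of LOC691221, not tested, differed by 1.63 and -0.06. The kept probe had means of -1.47, -0.95 and -1.43 at concentrations 1, 1/5 and 1/25 for 24 h.

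TC555318, a transcript known here by its identifier alone, is on the same strand. Its probe lies 2.17 kb beyond that of Igtp at chr10:43867894-43867953 and was well above background on all 20 arrays. It stood at -2.09 and -2.56 in untreated cultures, at -2.80, -2.54 and -2.21 at concentration 1 for 6 h, and at -1.16, -0.77 and -1.19 at concentration 1 for 24 h. The last group lay above both others without overlap. Differences were 1.29 ± 0.45 from untreated and 1.47 ± 0.40 from 6 h (SE, limma, adjusted p = 0.959 and 0.137). Unlike Igtp it was detected on every array, and it overlapped with 1/25 for 24 h, at -0.66, -1.64 and -1.37, where the difference was 0.19 ± 0.41 (SE, limma, adjusted p = 0.946). Whether its transcript belongs to Igtp was not analysed here.

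BP477365, on the opposite strand 1.84 kb from the Igtp probe at chr10:43867558-43867617, was likewise detected on all 20 arrays. Its values at concentration 1 for 24 h were -2.30, -2.27 and -2.28. In untreated cultures they were -2.77 and -3.19, and at 1/5 for 24 h -3.08, -3.11 and -3.32. Concentration 1 for 24 h thus lay above these 2 groups without overlap, by 0.70 ± 0.32 and 0.89 ± 0.28 (SE, limma, adjusted p = 0.999 and 0.114). It overlapped with 1/25 for 24 h, at -3.30, -2.28 and -2.94, and differed from 6 h at the same concentration by 0.25 ± 0.28 (SE, limma, adjusted p = 0.765). BQ204616, 15.2 kb from Igtp on the minus strand, differed from untreated by 0.68 ± 0.33, and Mrpl22, a mitochondrial ribosomal protein gene 43.0 kb away, by 0.25 ± 0.35 (SE, limma, adjusted p = 0.999 for both). Farther out, the zinc finger genes Zfp692 and Zfp672 differed by 0.91 ± 0.54 and 0.74 ± 0.48 (SE, limma, adjusted p = 0.999 for both). Their other probes, not tested, differed by 0.38 and -0.33. At concentrations 1, 1/5 and 1/25 for 24 h Zfp692 had means of -3.49, -2.65 and -3.40, and Zfp672 of -1.86, -1.73 and -1.92. Larp1, an RNA-binding protein gene, differed by 0.38 ± 0.41, and Cnot8, a deadenylase subunit gene, by 0.13 ± 0.59 (SE, limma, adjusted p = 0.999 for both). Among the neighbours below 0 were LOC690898 at -1.19 ± 0.70, RGD1308564_predicted at -0.87 ± 0.87 and TC532646 at -0.65 ± 1.01 (SE, limma, adjusted p = 0.999 for each). No neighbour had the on-and-off flags of Igtp.

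**Figure D4:**
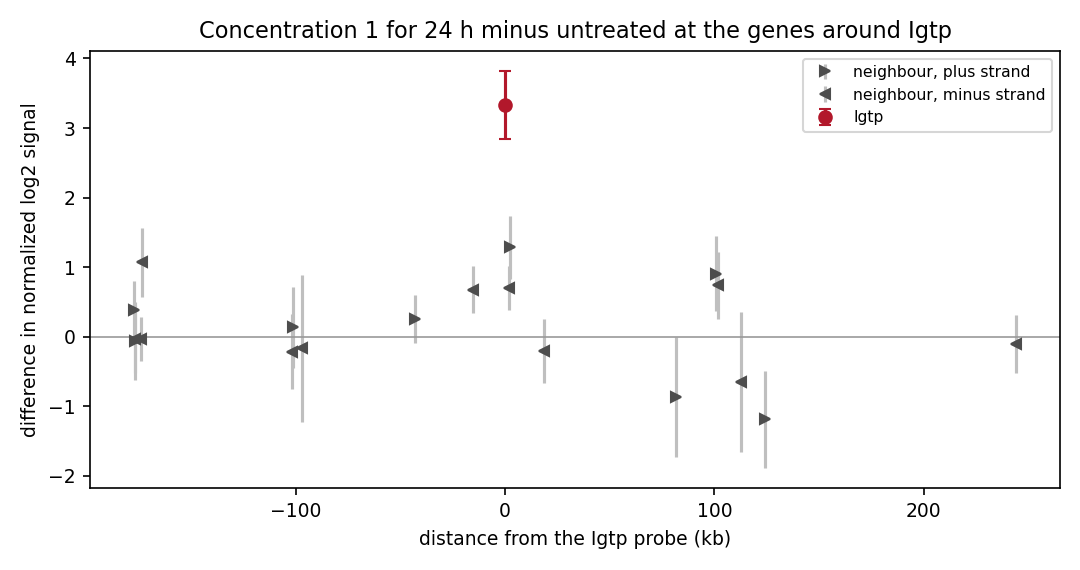
Difference in normalized log2 signal, concentration 1 for 24 h minus untreated, of Igtp (red) and of the 19 neighbours with a kept probe (triangles pointing right for the plus strand and left for the minus strand) against distance from the Igtp probe in kb; bars are SE from the fit. The neighbours lie between -1.19 and 1.29, and Igtp is drawn at 3.33 from measured means, although its untreated side is a bound.

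The flags that chose Igtp were counted over all genes as a background. Well above background on all 3 arrays of concentration 1 for 24 h and on none of the other 17 were 3 of 30488 genes (0.00984%), namely Igtp, Fbxo36 and Pp2d1. Nothing is read from this count, since the pattern was the reason for the choice. For the other groups the same kind of count was 1 for untreated, 4 for concentration 1 for 6 h and 0 for each of the other 4. Fbxo36, an F-box protein gene, ran from -6.07 to -5.18 on the 3 arrays, and Pp2d1, a gene of the protein phosphatase family, from -5.73 to -3.87. Just outside the pattern were 8 genes with 1 further array well above background.

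Profiles over the 20 arrays were ranked by Pearson's r with Igtp, as a description over arrays that share slides and signal. Of the 20 Igtp values, 17 are not well above background and have no order. So r reflects the 3 bright arrays, which chose Igtp, and otherwise values without meaning, and nothing further is read from it. Over 30247 genes the median r was -0.05, the 99th percentile 0.50 and the highest 0.79. Among the 8 genes of highest r that the naming rule took were Lipc (0.75), Pp2d1 (0.73), Adgrl4 (0.68), Semg1 (0.66), Klhl6 (0.66), Dguok (0.65) and Fbxo46 (0.65). These 7 are in none of the interferon lists used here. Of the 83 kept interferon members, 3 lay above the 99th percentile of 0.499, namely Rsad2 (0.543), Zbp1 (0.517) and Oasl (0.501). The median r of the members was -0.06. With Spearman's rho, 1 of the same 8 genes was among the top 8.

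Lipc, hepatic lipase, was at -1.74, -0.69 and -0.88 at concentration 1 for 24 h. It was also high on the third array of 1/5 for 24 h, at -0.90, and on the third of 1/25 for 6 h, at -1.62, the array that shared slide 4. Semg1 and Klhl6 were high on that slide mate as well, at -5.45 and -1.40, where Igtp was at -8.20. Their part in the likeness of these profiles to Igtp was not tested.

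Of the 7 genes, Pp2d1 came nearest to the flags of Igtp, with -3.87, -4.36 and -5.73 at concentration 1 for 24 h and no other array well above background. Adgrl4, an adhesion receptor gene of endothelium, ran from -4.69 to -3.69 at concentration 1 for 24 h and reached -4.43 at 1/5 for 24 h. Dguok, a mitochondrial deoxyguanosine kinase gene, and Fbxo46, an F-box protein gene, overlapped with other groups too.

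**Figure D5:**
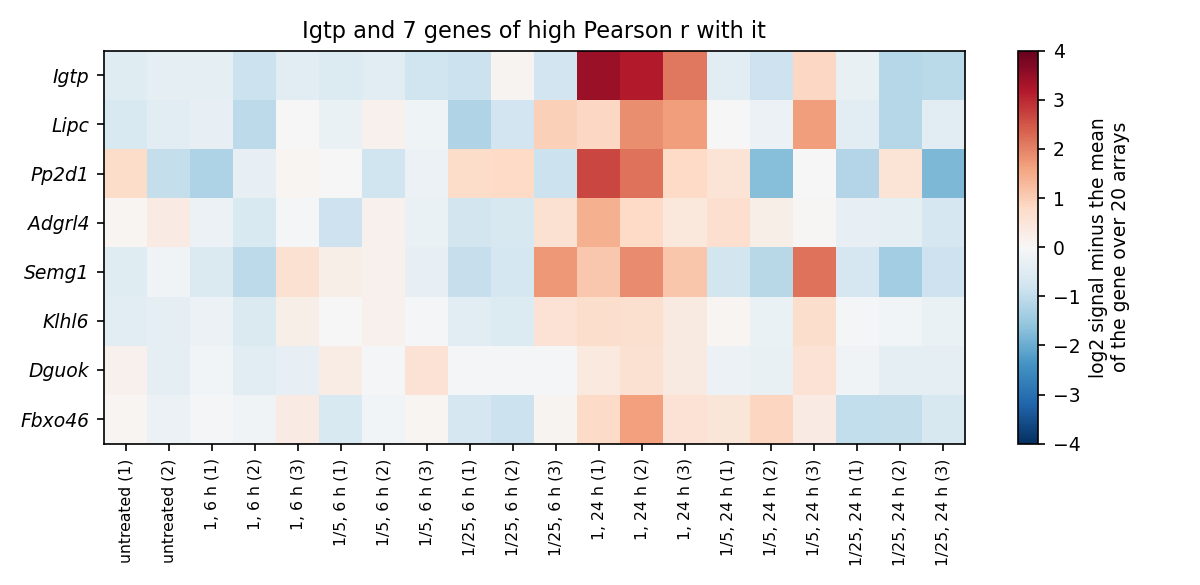
Normalized log2 signal of Igtp and 7 genes of high Pearson r with it on each of the 20 arrays (columns, replicate in parentheses), as the difference from the mean of the gene over the arrays, on a colour scale from -4 to 4. Igtp and Pp2d1 are red at concentration 1 for 24 h, and Lipc, Semg1 and Klhl6 are also red on the third array of 1/25 for 6 h and the third of 1/5 for 24 h.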

How the data were processed

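Total RNA was measured on 20 Agilent 1-colour rat arrays (Cy3). Per the file headers, the deposited scanner values are in the unit intensity, made by the authors with Agilent Feature Extraction 9.5.3.1, with background subtracted and no scaling between arrays. A second deposited table gives a ratio, found by comparison with the scanner values to be the signal over the array median, relative to the untreated mean. Flags, positions (rn3) and probe names are other columns of the deposited files, and a spot is well above background where its signal exceeds 13 SDs of the background.

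From the intensity, log2 minus the 75th percentile of non-control spots was computed. Flagged spots (120 to 271 of 43379 an array) were dropped and spots of a probe averaged. Kept were 35058 of 41012 probes, those well above background throughout 1 or more groups, and a gene took the values of its brightest kept probe. Names came from a matching accession in the RefSeq table (10861 probes), a symbol (5472) or a synonym (3692), otherwise from the file (20987). The 7 groups were fitted over all 20 arrays with limma 3.58.1 (R 4.3.3), which gave 9 two-sided comparisons adjusted by the Benjamini-Hochberg method over all genes at 0.05. On simulated data for concentration 1 for 24 h against untreated (30248 genes), 35 of 100 genes changed by 2 on the log2 scale and 80 of 100 changed by 4 were recovered, with 4 false calls. Further tools were numpy 2.4.6, pandas 2.3.3 and matplotlib 3.10.9 in Python 3.11.15.

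No 2 arrays held identical values. Slide and scan number coincided on 6 slides. Replicate numbers did not pair the arrays: over 57 pairs of the same number the median correlation of deviations from group means was -0.04 (-0.76 to 0.64, 12 over 0.1), against 0.04 for other numbers.

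Igtp, the gene lists and the rules were chosen with earlier results of these data known. Named were Igtp, every measured IRG, GBP and Mx gene, the 2 members of each other list farthest from 0 at concentration 1 for 24 h, genes within 250 kb of the probe, the 8 named genes of highest r, genes with the flags of Igtp, and markers. Irf1 and Parp14 were named after their values were seen. A few genes that these rules take are not reported here. Alternatives covered scaling, background correction, filters, slide, replicates, weights and likeness measure.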

Additional observations from a re-analysis of the deposited data

How the results depend on the processing

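The number of arrays limits precision, and where it is not well above background Igtp has only a bound. In every alternative run, the omission of 1 array included, 4 differences of Igtp at concentration 1 for 24 h stayed above 0. These were the differences from untreated, 1/5 at 24 h, 1/25 at 24 h and 6 h. Igtp was chosen for signal in this group alone, so their sign is a description and no support. The 4 differences moved most with normexp background correction, to 1.31, 1.01, 2.28 and 1.84. Quantile normalization gave 3.09 against 1/25 at 24 h. Against untreated it gave 0.48 for 1/25 at 6 h and 0.48 for 1/25 at 24 h, where normexp gave -0.97 at 24 h. In both of these, neither side was well above background. Leaving out 1 array gave 3.06 to 3.73, 2.72 to 3.54, 3.47 to 4.14 and 3.19 to 3.86 for the 4 differences.

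Interferon members that passed numbered 0 in 9 comparisons. Array weights gave 29 for concentration 1 for 24 h and 54 for 1/25 for 24 h against untreated, 77 for concentration 1 against 1/25 at 24 h and 54 for 24 h against 6 h, where they also called 29.7%, 66.1%, 90.7% and 60.7% of all genes. Slide as a random block gave 26 for 1/5 for 24 h against untreated, 24 for concentration 1 against it and 2 for 24 h against 6 h, beside 34.4%, 31.8% and 3.22% of all genes. Quantile normalization gave 1 for 24 h against 6 h, beside 1.10%. Leaving out 1 array gave 0 to 25 for 1/5 for 24 h and 0 to 3 for 1/25 for 24 h against untreated, and 0 to 20 for concentration 1 against 1/5 at 24 h, with the highest counts without the second array of the lower concentration, which called 35.3%, 2.07% and 28.6% of all genes.

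Neighbours that passed, 0 in 9 comparisons, became 1, 6, 11, 16 and 11 with array weights (1/5 for 6 h, concentration 1 for 24 h and 1/25 for 24 h against untreated, concentration 1 against 1/25 at 24 h, and 24 h against 6 h). They became 5, 9 and 2 with the random block, in the comparisons named for it above, and 1 with quantile normalization and 1 without the third array of 1/5 for 24 h, both for 24 h against 6 h. Leaving out 1 array gave 0 to 7 for 1/5 for 24 h against untreated and for concentration 1 against it, beside the same 35.3% and 28.6%. These alternatives for neighbours were added after seeing the data.

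Genes with the flags of Igtp, 3, numbered 11 when 2 of 3 arrays and at most 1 other sufficed, 0 with the flag for positive and significant signals, and 3 to 6 when 1 array was left out (5 without the second array of concentration 1 for 6 h, 6 without the third of 1/25 for 6 h). Of the 8 genes most like Igtp, 3 stayed with quantile normalization, 4 with normexp, 3 without a filter, 1 with Spearman's rho, 2 over group means and 3 without the third array of 1/5 for 24 h. The causes were not tested. With the replicate number as a block, the pairing being unsupported, the difference of Igtp from untreated was 3.37 and 0 members passed in each comparison. A fixed slide block could be fitted for concentrations 1 and 1/5 at 6 h alone, where 0 members passed.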

Other observations

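After their values were seen, 3 further probes for relatives of the GTPases were looked up. Ifgga2l1, annotated as like an interferon gamma inducible GTPase, was well above background on 17 of 20 arrays. It stood at -4.73, -4.73 and -4.59 at concentration 1 for 24 h and at -5.56 and -5.24 in untreated cultures, without overlap. Unlike that of Igtp, its mean was higher at 1/5 for 24 h, at -3.84, than at concentration 1 for 24 h, at -4.68. Its highest array was the third of 1/5 for 24 h, at -2.50. At 1/25 for 24 h it reached -4.67 and overlapped with concentration 1, and at concentration 1 for 6 h it reached -4.76. RGD1309362 was well above background on 2 arrays, 1 of them at concentration 1 for 24 h, and Gvinp1 on 0 of 20. No test was made for these 3.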
